A study of Homo sapiens with 4 samples.

Results

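The 9 genes described here belong to the pathway of transforming growth factor beta (TGF-beta), and they are 9 of the 51136 rows of the deposited expression table. They are the ligands *TGFB1* and *TGFB2*, the receptors *TGFBR1* and *TGFBR2*, the signal transducer *SMAD3*, the feedback inhibitors *SMAD7* and *SKIL*, and the target genes *TGFBI* and *ANGPTL4*. The rows were found by gene symbol, and all 9 were in the table. The genes were chosen with the difference between the groups already known, so their values in that comparison are a description and support nothing.

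RNA-seq was run on cells labelled A549, a line derived from a human lung adenocarcinoma, grown with 10% serum. Both groups received a small interfering RNA: a control one in the group si-control (genotype label WT), and one that targets *DLX6* in the group si-DLX6 (genotype label *DLX6* knockdown). Each group has 2 libraries. The labels give an adipogenic differentiation treatment for all 4 libraries. They state no RNA dose, no time and no separate cultures, so the spread between the 2 libraries of a group may be technical, and in such bulk samples fewer cells of a type and less RNA per cell cannot be told apart.

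TGF-beta is secreted in a latent form, held by its own propeptide and by latent TGF-beta binding proteins. Once released, it binds the type II receptor, which phosphorylates the type I receptor, and this in turn phosphorylates SMAD2 and SMAD3, which enter the nucleus with SMAD4 and bind target genes. Several targets, among them SMAD7 and SKIL, then dampen the signal. In lung carcinoma cells the pathway is best known for slowing division and for driving the transition from an epithelial to a mesenchymal state.

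The cell label was checked against markers. The keratins *KRT8* and *KRT18* stood at 100.1 to 138 and 422 to 475 FPKM (FPKM, fragments scaled to gene length and library total, is the unit of the table). Several other epithelial markers were near 0: the cell adhesion molecule *EPCAM* reached at most 0.437 FPKM, *KRT19* at most 0.259 FPKM, and E-cadherin (*CDH1*) had 1 read in the 4 libraries together. *AKR1B10*, a reductase abundant in A549 cells, reached 0.377 FPKM. *CDKN2A*, which lies in a region that A549 cells are known to have lost on both copies, stood at 19.4 to 23.0 FPKM, and *AKR1C1*, another reductase abundant in A549, at 0.24 to 1.5 FPKM; these last 2 genes were picked after their values were seen. Of the other markers of the preset epithelial and lung adenocarcinoma list, *NQO1* was abundant at 100.5 to 207 FPKM. *KRT7* stood at 0.589 to 1.33 FPKM and *MUC1* at 1.26 to 3.72 FPKM. The low markers and the level of *CDKN2A* go against the label, so the samples are called the cells labelled A549 here. The 9 epithelial and lung adenocarcinoma markers summed to 673 to 720.3 FPKM with si-control and 720.5 to 786 FPKM with si-DLX6. The higher sum came from *NQO1*, whose mean was 103 FPKM with si-control and 200 FPKM with si-DLX6. The means of the abundant keratins were lower with si-DLX6, 130 against 105 FPKM for *KRT8* and 461 against 443 FPKM for *KRT18*. Of the 5 markers of this list that were tested, 2 rose (*NQO1* and *MUC1*), beside 10.2% of all genes tested. *KRT8* went the other way, from 138 and 123 to 111 and 100.1 FPKM, and was not called (-0.30, SE 0.11; limma adjusted p = 0.0971). The mesenchymal filament gene *VIM* stood at 1704 to 1967 FPKM. The 6 adipocyte markers summed to 1.15 to 2.13 FPKM, nearly all of it *PPARG*, with *ADIPOQ* and *LEP* at 0. The 6 fibroblast markers summed to 0.283 to 0.783 FPKM, highest in the si-DLX6 libraries. Of 6 blood and endothelial markers, *PTPRC*, *CD3E* and *CDH5* were at 0, and the summed level, 64.1 to 69.3 FPKM with si-control and 103 to 118 FPKM with si-DLX6, was almost wholly *CD68*, which rose (log2 fold change 0.72, SE 0.11). The part of these markers in the results below was not tested.

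The targeted gene *DLX6*, a homeobox transcription factor, stood at 3.27 and 3.47 FPKM with si-control (library 1, then 2, as throughout). It stood at 0.916 and 0.450 FPKM with si-DLX6, so the libraries followed their labels. The reads were 74 and 63 against 18 and 9. *DLX6* reached 1 FPKM only in its si-control libraries and passed the filter through them, so its call is a description (log2 fold change -1.39, SE 0.20, limma adjusted p = 0.00859, and 0.0667 with no filter on low values). Library totals ran from 9678221 to 12075285 reads. The test covered the 15504 genes that reached 1 FPKM in 2 or more libraries, of which limma called 3046 (19.6%) at a Benjamini-Hochberg adjusted p under 0.05, 1575 (10.2%) higher and 1471 (9.49%) lower with si-DLX6. With median-of-ratios scaling the split was 1090 higher and 1817 lower.

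Among the 9 genes, the ligand *TGFB1* and the matrix target *TGFBI* were higher and the secreted lipase inhibitor *ANGPTL4* was lower with si-DLX6. These 3 of the 8 tested members were called, 2 higher and 1 lower, beside 19.6% of all genes; this comparison was the one the members were chosen on, and nothing is read from the count. All 8 were above 1 FPKM in each library, while *TGFB2* was below 1 FPKM in each and was not tested. The groups did not overlap in 5 members that were higher and 2 that were lower with si-DLX6, beside 35.1% and 27.9% of all genes.

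The order of the levels per length was nearly the same in the 4 libraries. *TGFB1* was the most abundant, then *TGFBI*, then *SMAD3*; *SKIL* was the 8th and *TGFB2* the 9th in each library. *ANGPTL4* was the 4th and *TGFBR2* the 5th with si-control, and the reverse held with si-DLX6. *TGFBR1* and *SMAD7* likewise changed places as the 6th and 7th, but their levels with si-control, 2.57 and 3.18 FPKM against 2.36 and 2.71 FPKM, overlapped.

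**Figure D1:**
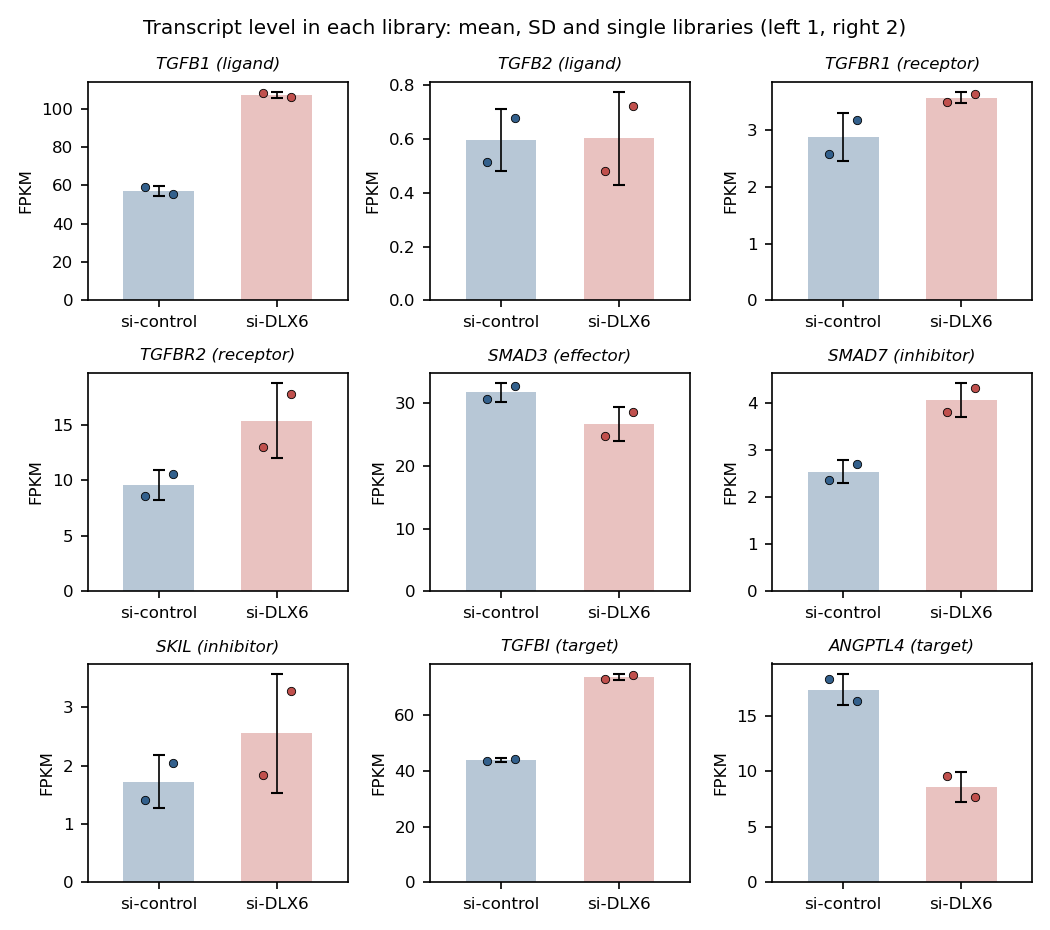
Transcript level in FPKM of the 9 members (y axes start at 0 and differ), with si-control in blue and si-DLX6 in red; bars are means, error bars SD over 2 libraries, points single libraries. The points of the groups lie far apart for *TGFB1*, *TGFBI* and *ANGPTL4* and overlap for *TGFB2* and *SKIL*.

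The promoters of the 3 called members are shown because these are the genes that carry the difference, 2 upward and 1 downward. The sequences are the 250 bases before the transcript start in RefSeq (GRCh38.p14), 5′ to 3′ on the strand of the gene. Capitals mark GC boxes (GGGCGG or its reverse complement CCGCCC), the SMAD core (CAGAC or GTCTG) and the TATA box (TATAAA or TTTATA).
*TGFB1* (chr19:41353923-41354172, minus strand): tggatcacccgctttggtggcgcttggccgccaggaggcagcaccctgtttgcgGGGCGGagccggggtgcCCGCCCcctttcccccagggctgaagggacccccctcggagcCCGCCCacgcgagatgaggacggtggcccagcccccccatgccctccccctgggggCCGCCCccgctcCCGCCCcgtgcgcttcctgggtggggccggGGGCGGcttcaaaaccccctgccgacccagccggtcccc
*TGFBI* (chr5:136028738-136028987, plus strand): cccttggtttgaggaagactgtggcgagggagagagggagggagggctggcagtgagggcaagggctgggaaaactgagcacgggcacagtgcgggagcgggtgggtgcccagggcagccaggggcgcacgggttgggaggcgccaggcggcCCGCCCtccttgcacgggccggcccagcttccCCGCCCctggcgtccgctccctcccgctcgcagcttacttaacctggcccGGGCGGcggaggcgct
*ANGPTL4* (chr19:8363905-8364154, plus strand): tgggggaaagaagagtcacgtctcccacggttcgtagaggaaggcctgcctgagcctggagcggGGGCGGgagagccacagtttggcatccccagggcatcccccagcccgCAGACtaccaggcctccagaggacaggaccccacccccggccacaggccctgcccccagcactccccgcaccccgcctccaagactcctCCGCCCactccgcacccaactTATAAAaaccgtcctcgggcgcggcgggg
The *TGFB1* window held 6 GC boxes, no SMAD core and no TATA box, and the *TGFBI* window held 3 GC boxes and neither of the others. The *ANGPTL4* window held 2 GC boxes, 1 SMAD core whose first base lies 139 bases before the start, and a TATA box whose first base lies 29 bases before it. The AP-1 motif (TGANTCA) was searched as well and is in none of the 3 windows. Of 35116 promoters of 300 bases (250 before and 50 after the start), 45% hold a GC box, 45.3% a SMAD core, 11.5% a TATA box and 7.71% an AP-1 motif on either strand. The palindromic SMAD box GTCTAGAC is in 0.202% of them and in none of the windows of the 9 members, several of which have more than one start. The homeodomain core TAATT (or AATTA) is in 24.8% of all windows. In the windows shown for *TGFB1*, *TGFBI* and *ANGPTL4* it is absent, as it is in those of *TGFB2*, *TGFBR2* and *SKIL*. It is present in a window of *TGFBR1*, a window of *SMAD3* and each window of *SMAD7*. G and C made up 77.3% of the 300 bases for *TGFB1*, 72.7% for *TGFBI* and 66.3% for *ANGPTL4*, beside a median of 58.7% over all promoters. These matches describe letters only.

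*TGFB1* encodes the main secreted form of the ligand in most epithelia and tumours. It stood at 59.1 and 55.3 FPKM with si-control and at 108 and 106 FPKM with si-DLX6. Both si-DLX6 libraries were far above both si-control libraries, and the libraries of a group were close to each other. The reads behind these values were 1844 and 1383 against 2932 and 2924, so that si-DLX6 had 187% of the si-control reads per library total (exact 95% interval 179% to 195%; all such intervals cover counting error only). The log2 fold change of FPKM + 1 was 0.89 (SE 0.09). It lay between 0.85 and 0.94 when any 1 library was left out, and *TGFB1* was called each time. The gene lies on chromosome 19 from 41301587 to 41353911 (GENCODE release 29, GRCh38). Its exons share 215 bases with exons of *HNRNPUL1* on the opposite strand, a gene whose reads numbered 17155 and 13522 in the control group and 16789 and 17465 after knockdown. No source used here says whether the counting was strand-specific, so reads in those bases cannot be told apart.

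*TGFB2*, the other ligand among the members, is best known from development. It stood at 0.515 and 0.677 FPKM with si-control and at 0.481 and 0.724 FPKM with si-DLX6, from 30 to 46 reads a library. The groups overlapped, and the si-DLX6 reads were 103% of si-control (exact 95% interval 73.8% to 143%). This interval leaves out the spread between libraries, so it is not a detection limit, and a change may have been missed. Its exons (chromosome 1, 218346235 to 218444619) share 1371 bases with *TGFB2-OT1* on the same strand, which had 1 or 2 reads in each library. Together with *TGFB3*, the remaining ligand of the family, *TGFB1* made up 94.9% and 94.4% of the summed ligand FPKM with si-control, against 98.2% and 97.3% with si-DLX6.

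*TGFBR2*, the ligand-binding type II receptor kinase, stood at 8.61 and 10.5 FPKM with si-control and at 13.0 and 17.8 FPKM with si-DLX6. The groups did not overlap, but the si-DLX6 libraries lay further apart from each other relative to their mean than those of the other members except *TGFB2* and *SKIL*. The gene lies on chromosome 3 from 30606502 to 30694142. Its log2 fold change was 0.62 (SE 0.18) and it was not called. It was 0.41 without si-DLX6 library 2 and 0.83 without si-DLX6 library 1, and in the latter fit it was called. It was also called with a filter of 5 FPKM and by limma-voom (0.68).

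*TGFBR1* (chromosome 9, 99104038 to 99154192), the type I receptor kinase, stood at 2.57 and 3.18 FPKM with si-control and at 3.49 and 3.63 FPKM with si-DLX6. The gap between the groups was smaller than the gap between the si-control libraries. Its log2 fold change of 0.24 (SE 0.17) was not called, and it ranged from 0.13 to 0.35 when 1 library was left out. Per length, *TGFBR2* exceeded *TGFBR1* 3.35-fold and 3.32-fold with si-control, against 3.72-fold and 4.89-fold with si-DLX6.

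*SMAD3* (chromosome 15, 67063763 to 67195195), the receptor-activated transcription factor of the pathway, stood at 30.6 and 32.7 FPKM with si-control and at 24.7 and 28.5 FPKM with si-DLX6. Both si-DLX6 libraries were below both si-control libraries, by a margin smaller than the spread within the si-DLX6 group. The log2 fold change was -0.25 (SE 0.11), and it was not called. It was -0.15 without si-DLX6 library 1 and -0.34 without si-DLX6 library 2. The reads were 84.4% of si-control (exact 95% interval 80.7% to 88.2%). Of its exon bases, 182 are shared with the antisense gene *AC087482.1*. Its partner *SMAD2*, chosen after its values were seen, stood at 4.26 and 5.12 FPKM with si-control and 6.91 and 7.55 FPKM with si-DLX6 (log2 fold change 0.53, SE 0.15; limma adjusted p = 0.0537). The FPKM ratio of *SMAD3* to *SMAD2* was therefore 7.19 and 6.40 with si-control, against 3.58 and 3.78 with si-DLX6. Both genes were chosen with their values known and neither was called, so the gap between these ratios is a description and supports nothing.

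*SMAD7* (chromosome 18, 48919853 to 48952052), the inhibitory SMAD that blocks the type I receptor and recruits ubiquitin ligases to it, stood at 2.36 and 2.71 FPKM with si-control and at 3.80 and 4.31 FPKM with si-DLX6. The groups were separate, with 88 and 81 reads against 123 and 142. The reads were 161% of si-control (exact 95% interval 132% to 197%). The log2 fold change of 0.52 (SE 0.16) was not called, and it was called at 0.68 by limma-voom on recovered reads. The ratio of *SMAD3* to *SMAD7* in FPKM was 13.0 and 12.1 with si-control, against 6.51 and 6.61 with si-DLX6.

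*SKIL* (chromosome 3, 170357678 to 170396835), a corepressor that binds SMAD proteins on DNA, stood at 1.41 and 2.04 FPKM with si-control and at 1.83 and 3.27 FPKM with si-DLX6. The lower si-DLX6 library lay between the si-control libraries, so the groups overlapped. The log2 fold change was 0.36 (SE 0.25), not called, and it was 0.07 without si-DLX6 library 2 and 0.66 without si-DLX6 library 1.

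**Figure D2:**
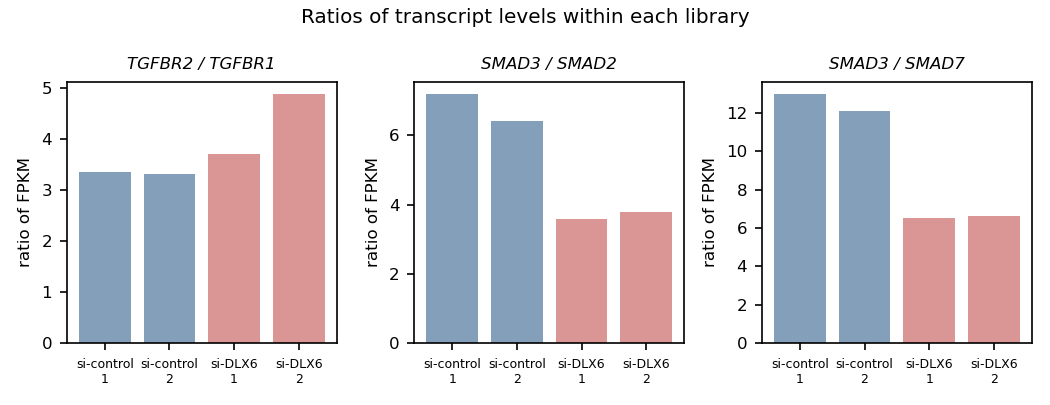
Ratio of FPKM values within each library (y axes start at 0), si-control in blue and si-DLX6 in red, 1 bar per library. The ratio of *SMAD3* to *SMAD2* lies between 6.40 and 7.19 with si-control and between 3.58 and 3.78 with si-DLX6, that of *SMAD3* to *SMAD7* between 12.1 and 13.0 and between 6.51 and 6.61, and that of *TGFBR2* to *TGFBR1* between 3.32 and 4.89 over the 4 libraries. The genes were chosen with their values known, and none of them was called in the main fit.

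*TGFBI* (chromosome 5, 136028895 to 136063818) encodes an extracellular matrix protein named for its induction by TGF-beta. It stood at 43.4 and 44.2 FPKM with si-control and at 72.8 and 74.4 FPKM with si-DLX6. The libraries of each group were within a few percent of each other and the groups were wide apart. Group means were 43.8 ± 0.615 and 73.6 ± 1.14 FPKM (SD, n = 2 each). There were 1469 and 1201 reads against 2140 and 2225, or 168% of si-control (exact 95% interval 160% to 177%). The log2 fold change was 0.73 (SE 0.09), from 0.72 to 0.75 when 1 library was left out, and it was called in each of those fits.

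*ANGPTL4* (chromosome 19, 8363289 to 8374373) encodes a secreted inhibitor of lipoprotein lipase that TGF-beta is known to induce through SMADs, and that lipid sensors and hypoxia induce as well. It stood at 18.4 and 16.4 FPKM with si-control and at 9.55 and 7.67 FPKM with si-DLX6. Both si-DLX6 libraries were well below both si-control libraries, opposite to *TGFBI*. The reads were 434 and 310 against 196 and 160, or 49.2% of si-control (exact 95% interval 43.3% to 55.9%). The log2 fold change was -0.94 (SE 0.15), from -1.08 to -0.80 when 1 library was left out, and it was called each time. It was not called with no filter on low values. The FPKM ratio of *TGFBI* to *ANGPTL4* was 2.36 and 2.7 with si-control, against 7.62 and 9.7 with si-DLX6.

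**Figure D3:**
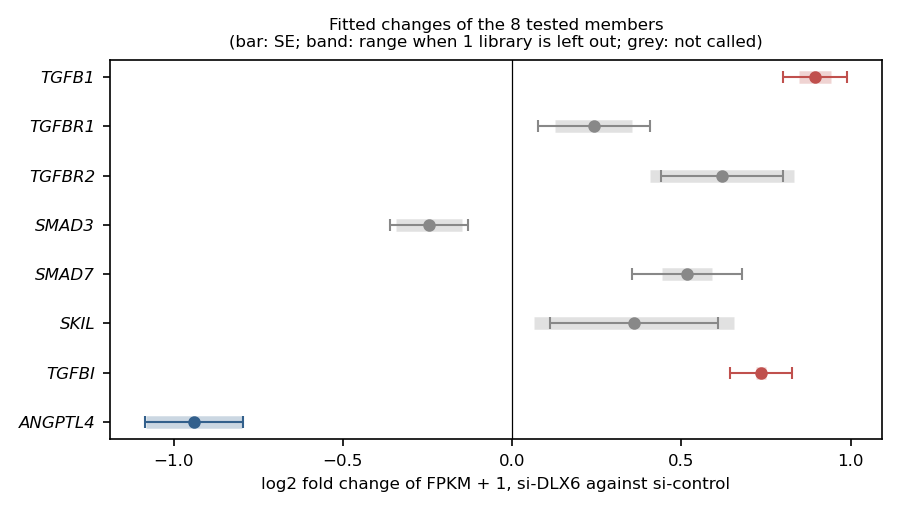
Log2 fold change of FPKM + 1 (x axis) of the 8 tested members; points are fitted values, error bars SE, bands the range when 1 library is left out; red was called higher, blue lower, grey was not called. *TGFB1* (0.89) and *TGFBI* (0.73) lie to the right with narrow bands, *ANGPTL4* (-0.94) to the left, and the band of *SKIL* reaches from 0.07 to 0.66.

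The wider pathway was described with 5 lists of 102 further genes, chosen by role. The lists were drawn up with earlier results of these data known, so their counts and medians are a description and support nothing. Of these, 70 were tested, 18 were called higher and 3 lower with si-DLX6 (limma, Benjamini-Hochberg adjusted p under 0.05), that is 25.7% and 4.29% beside 10.2% and 9.49% of all genes. Their median log2 fold change was 0.24, beside 0.05 for all genes tested. With median-of-ratios scaling the medians were 0.15 and -0.03 and the counts 13 higher and 3 lower. The counts depended on the number of libraries: leaving out si-control 1 or 2 or si-DLX6 2 left 7 higher, leaving out si-DLX6 1 left 8, and each of these fits left 0 lower. With no filter on low values 2 were called higher and 0 lower. On simulated reads, which had the same spread for every gene and few changed genes, the main fit made more false calls than its threshold allows. limma-voom stayed within it there, but that setting differs from these data, so it does not show which calls here are right. limma-voom called the same 21 genes in the same directions, among 24 higher and 3 lower. Over all genes it called 2166 higher and 1663 lower, more than the main fit. *SMURF2*, *PPP1R15A* and *CTGF* were the 3 of the 21 called genes that were called in each of the 4 fits, and 8 of the 21 were called in none of them. Of the 70, *SMAD9* passed the filter only through its si-DLX6 libraries and *ACVR2B* only through its si-control libraries, and neither was called.

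Among 11 tested genes of other ligands, latency and activation, 4 rose and 1 fell, with a median log2 fold change of 0.36. That is 36.4% and 9.09%, beside 10.2% higher and 9.49% lower over all genes tested. Of the latent TGF-beta binding proteins, which store the ligand in the matrix, *LTBP2* stood at 6.16 and 6.57 FPKM with si-control and 10.9 and 11.3 FPKM with si-DLX6 (log2 fold change 0.72, SE 0.13, limma adjusted p = 0.015). Its change was 0.67 to 0.76 when 1 library was left out, and it was not called with no filter on low values (limma adjusted p = 0.0608). *LTBP3* rose from 7.88 ± 1.66 to 13.3 ± 0.0898 FPKM (SD, n = 2 each; 0.70, SE 0.16; limma adjusted p = 0.0283). Its call was lost with median-of-ratios scaling (adjusted p = 0.0501) and in 3 of the 4 fits that left out a library. *LTBP4*, the most abundant of the list, stood at 39.4 and 36.3 FPKM with si-control and 48.5 and 51.5 FPKM with si-DLX6 (0.39, SE 0.10; limma adjusted p = 0.0409), and it was called in none of the fits that left out a library. *GDF15*, a distant stress-induced member of the ligand superfamily, rose from 1.59 ± 0.303 to 4.18 ± 0.0504 FPKM (SD, n = 2 each), on 20 to 53 reads a library. Its log2 fold change was 1.00 (SE 0.17, limma adjusted p = 0.0133), from 0.88 to 1.12 when 1 library was left out. With no filter on low values *GDF15* was not called (limma adjusted p = 0.0747). *FURIN*, the protease that cleaves the TGF-beta precursor, fell from 9.62 ± 0.895 to 6.55 ± 0.0749 FPKM (-0.49, SE 0.14; limma adjusted p = 0.0491) and was called in none of the fits that left out a library; it is named beyond the rule because it was the 1 that fell. The ligand *TGFB3*, named after its values were seen, at 2.68 and 2.60 against 1.54 and 2.22 FPKM, was not called (-0.35, SE 0.19; limma adjusted p = 0.23). The activin subunits *INHBA* and *INHBB*, *NODAL*, *LEFTY1*, *LEFTY2* and *BGN* were at 0 in each library.

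Among 8 tested receptor genes, 2 rose and 2 fell, that is 25% each, beside 10.2% and 9.49% of all genes tested. The median was -0.17. The coreceptor *TGFBR3*, which presents ligand to TGFBR2, rose from 3.72 ± 0.610 to 8.10 ± 2.32 FPKM (SD, n = 2 each; fitted change 0.93, SE 0.21; limma adjusted p = 0.0295). The type I receptor *ACVR1* of the BMP and activin branch rose from 9.86 ± 1.09 to 15.8 ± 1.70 FPKM (0.63, SE 0.14; limma adjusted p = 0.0269). The activin type I receptor *ACVR1B* fell from 8.23 ± 0.548 to 5.09 ± 0.609 FPKM (-0.60, SE 0.15; limma adjusted p = 0.0355), and the receptor-associated protein *TGFBRAP1* fell from 9.18 ± 0.000788 to 5.84 ± 0.518 FPKM (-0.58, SE 0.14; limma adjusted p = 0.0319). Neither of those that fell was called when any 1 library was left out, and *TGFBR3* and *ACVR1* were called in 2 of the 4 such fits each. *FKBP1A*, which holds the type I receptor inactive and was the most abundant of the list, stood at 125 ± 1.74 and 103 ± 1.30 FPKM and was not called (-0.28, SE 0.09; limma adjusted p = 0.0783).

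Among 11 tested SMADs and cofactors, 1 rose and 0 fell in limma, with a median of 0.26. The share that rose, 9.09%, is near the 10.2% of all genes tested, and 9.49% of all genes fell. At an unadjusted p under 0.05, 4 were higher and 0 lower, and limma-voom likewise called 4 and 0. *SMAD9*, among the 4 at the unadjusted threshold, passed the filter only through its si-DLX6 libraries, where it was higher. Over all 15504 genes tested, 5598 had an unadjusted p under 0.05 in either direction, and limma-voom called 2166 higher and 1663 lower. The 1 that rose was *ZFYVE9*, the anchor that brings SMAD2 and SMAD3 to the receptor, from 4.89 ± 0.562 to 7.63 ± 0.513 FPKM (SD, n = 2 each; 0.55, SE 0.15; limma adjusted p = 0.0460), and it was called in none of the fits that left out a library. The most abundant of the list, *EID2*, stood at 30.8 ± 2.33 and 31.2 ± 1.11 FPKM.

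The list of inhibitors also holds deubiquitinases and a ligase known to promote the pathway (*USP4*, *USP11*, *USP15*, *UCHL5* and *RNF111*). Of its 19 tested genes, 4 rose (21.1%, beside 10.2% of all genes) and 0 fell in limma (beside 9.49%). The median was 0.05, the same as over all genes, and -0.04 with median-of-ratios scaling, beside -0.03. At an unadjusted p under 0.05, 6 were higher and 1 lower, beside 5598 in either direction of all 15504 genes tested. limma-voom called 5 and 0, beside 2166 higher and 1663 lower over all genes. The ubiquitin ligase *SMURF2*, which SMAD7 brings to the receptor, stood at 21.5 and 25.8 FPKM with si-control and at 48.0 and 56.4 FPKM with si-DLX6 (log2 fold change 1.11, SE 0.13; limma adjusted p = 0.00577). Both si-DLX6 values were well above both si-control values, and it was called whichever library was left out. *PPP1R15A*, a phosphatase subunit that SMAD7 can bring to the type I receptor and that the integrated stress response induces, rose from 15.6 ± 0.456 to 28.4 ± 1.83 FPKM (SD, n = 2 each; 0.82, SE 0.11; limma adjusted p = 0.00748). The deubiquitinase *USP11* rose by 0.54 (SE 0.10, limma adjusted p = 0.0152), and is one of those known to sustain the pathway. Its change was 0.50 to 0.59 when 1 library was left out, and it was not called with no filter on low values (limma adjusted p = 0.0604). The ligase *SMURF1* rose by 0.42 (SE 0.11; limma adjusted p = 0.0476) and was called in none of the fits that left out a library. *STRAP*, the most abundant of the list, stood at 156 ± 7.41 and 158 ± 0.273 FPKM.

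Among 21 tested target genes, 7 rose (33.3%, beside 10.2% of all genes) and 0 fell in limma (beside 9.49%). The median was 0.29, beside 0.05 over all genes. At an unadjusted p under 0.05, 10 were higher and 0 lower, beside 5598 in either direction of all 15504 genes tested. limma-voom called 9 and 0, beside 2166 higher and 1663 lower over all genes. The secreted matrix regulator *CTGF* stood at 44.8 and 44.2 FPKM with si-control and at 77.5 and 85.3 FPKM with si-DLX6 (log2 fold change 0.85, SE 0.10; limma adjusted p = 0.00536), and it was called in each fit that left out a library. *KLF10*, an early-response repressor, rose from 17.5 ± 0.0353 to 26.4 ± 1.61 FPKM (SD, n = 2 each; 0.56, SE 0.11; limma adjusted p = 0.0180). The smooth muscle actin gene *ACTA2* rose from 3.23 ± 0.828 to 7.46 ± 1.12 FPKM (1.01, SE 0.19, limma adjusted p = 0.0186), on 45 to 152 reads a library. Its change was 0.81 to 1.21 when 1 library was left out, and it was not called with no filter on low values (limma adjusted p = 0.0909). *BHLHE40*, a repressor of the clock and differentiation, rose from 3.00 ± 0.346 to 6.08 ± 0.911 FPKM (0.82, SE 0.17; limma adjusted p = 0.0224). The other 3 were *CDKN2B* (0.67), *SPHK1* (0.63) and *TGFB1I1* (0.80), the first pair called in none of the fits that left out a library. *TGFB1I1*, *KLF10* and *BHLHE40* were called in 1 of the 4 such fits each. *CDKN2B* lies beside *CDKN2A* in the region that A549 cells have lost, and stood at 4.46 to 8.87 FPKM. The 2 most abundant targets were not called: *VIM* stood at 1729 ± 34.3 and 1880 ± 123 FPKM and *CYR61* at 219 ± 2.62 and 230 ± 3.70 FPKM (limma adjusted p = 0.563 and 0.661).

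Several targets were below the filter and were not tested. Of the 32 untested genes of the 5 lists, 9 were at 0 in each library and 23 had reads. The groups did not overlap in 6 of these 23, each higher with si-DLX6, beside 25.2% of all 13133 untested genes with reads, so the share is near the background; 0 were lower, beside 9.34%. The others of the 6 (*FST*, *COL1A2* and *COL5A1*) had at most 7 reads in a library. Of 3 picked after their values were seen, the collagen *COL1A1* had 8 and 6 reads with si-control, against 29 and 24 with si-DLX6, the gelatinase *MMP2* 11 and 8 against 28 and 28, and the integrin *ITGB6*, which activates latent TGF-beta, 3 and 6 against 14 and 14. Their si-DLX6 reads were 389% (exact 95% interval 213% to 760%), 303% (177% to 540%) and 320% (147% to 771%) of si-control. *SNAI1* and *SNAI2*, transcription factors of the mesenchymal transition, stood below 1 FPKM in each library.

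**Figure D4:**
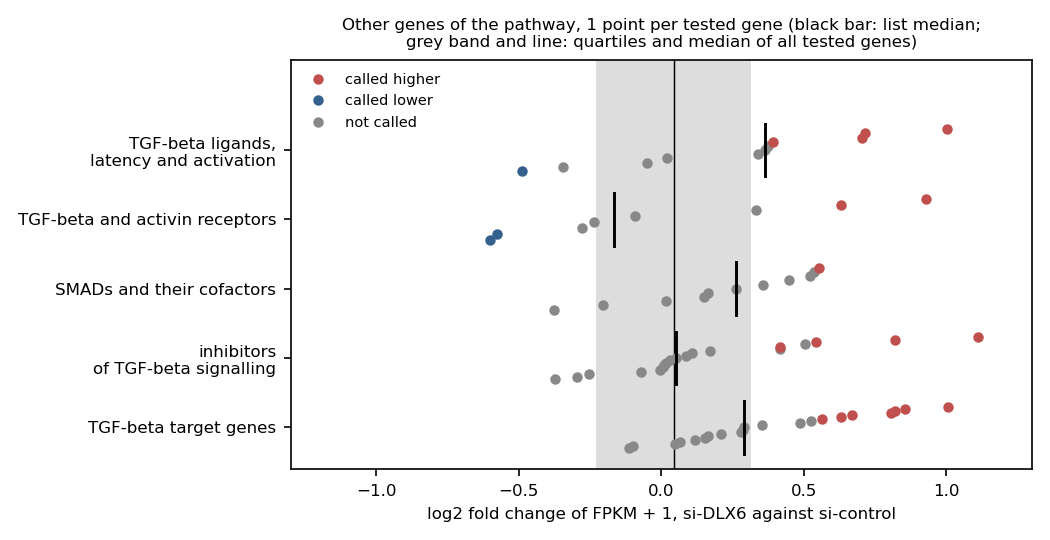
Log2 fold change of FPKM + 1 (x axis) of the 70 tested genes of the 5 lists (y axis), 1 point per gene in red (called higher), blue (called lower) or grey (not called); black bars are list medians, and the grey band and line are the quartiles and the median of all 15504 tested genes. List medians run from -0.17 for receptors to 0.36 for ligands and activation, and that of the inhibitor list (0.05) is below 0 with median-of-ratios scaling.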

How the data were processed

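Per the labels' protocols, sequencing libraries came from 1.3 µg of total RNA (SMARTER kit). The authors deposited 1 table with a value per gene and library. Its header names no unit, and the deposited values were taken as FPKM because each gene's values are whole multiples of 1 step, in the same ratio between libraries. The sources used here name no aligner, counter, strand setting or annotation. The submitters' processing notes name GRCm38 and mm10, a mouse build, while the rows carry human symbols, so no build was assumed for the values.

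Dividing by the steps gave whole reads (within 0.001) for 28637 of 28637 genes above 0. The step of each gene was searched until its values were whole. A gene with reads in few libraries meets this almost by construction, so the count does not test the recovery for such genes. The library total came from 10 of 11 mitochondrial genes of known length, and a factor shared by a gene's reads was restored in 1495 genes where the implied length was not whole. Genes held 98.0% to 98.1% of the totals.

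limma 3.58.1 (R 4.3.3) was fitted with a trend to log2(FPKM + 1) with group as the only term, and p-values were adjusted by Benjamini-Hochberg over 15504 genes. Fold changes on this scale understate those of low genes. On simulated reads with the same spread for every gene and few changed genes, this fit made more false calls than the threshold of 0.05 allows. limma-voom did not, but that setting differs from these data. Groups came from the titles in the labels and columns from the descriptions.

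The members and gene lists were chosen with earlier results of these data known. Genes named are the members, *DLX6*, and of each of 5 lists up to 4 called genes by smallest p and the 2 most abundant; all others were picked after their values were seen. Exact binomial intervals (95%, Clopper-Pearson) compare summed reads per library total. Promoters are RefSeq's (GRCh38.p14) and all 9 members matched by symbol. Alternatives were a pseudocount of 0.1, other filters and scalings, a replicate block, limma-voom and leaving out each library. One target gene is not reported here by name.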

Additional observations from a re-analysis of the deposited data

How the results depend on the processing

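Of the 9 members, *TGFB1* and *TGFBI* were called higher under each alternative, and *ANGPTL4* was called lower under each except the fit with no filter on low values (adjusted p = 0.0662), which left 0 members lower and 2 higher. By limma-voom and with the replicate block, 4 members were called higher, which added *TGFBR2* and *SMAD7*. Outside the members, the block also called *FKBP1A* of the receptor list lower (log2 fold change -0.28, limma adjusted p = 0.0252). With no filter, all genes gave 167 higher and 205 lower calls and the pathway genes 2 and 0. Leaving out 1 library gave 682 to 852 higher and 683 to 915 lower calls over all genes, and 7 to 8 higher and 0 lower among the pathway genes; these fits rest on 3 libraries, and the lone library of a group is assumed to vary like the others. The replicate block gave 2749 higher and 2370 lower calls over all genes. Same-numbered libraries deviated together with a correlation of 0.20 across genes, but 2 pairs and the labels do not show that the numbers pair the samples. Of the members, *DLX6* and the list genes named by rule, 3 uncalled genes changed sign: *EID2* (-0.074 with median-of-ratios and -0.023 with upper-quartile scaling; -0.058 to 0.092 without 1 library), *STRAP* (-0.076 and -0.024; -0.031 to 0.065) and *CYR61* (-0.027 with median-of-ratios scaling). The cause of the other shifts was not tested. *TGFB2* rests on few reads, 30 to 46 a library, and was below the filter of the main fit.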
